A study of Cricetulus griseus with 24 samples.

Results

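The heme oxygenase gene Hmox1 and 9 further genes of the Nrf2 antioxidant pathway were followed across 2 growth phases of 3 Chinese hamster ovary (CHO) cell lines. The 10 genes were taken from the count table by symbol, and each was found in 1 row of the 28037 genes. Heme oxygenase was chosen because it was already known to rise in stationary A0 cells and not in A1. Its changes and differences that involve A0 or A1 are therefore described without a test and left out of the counts there. The question is how the other 9 genes moved. A0 is a CHO DG44 line that makes a humanized IgG. It carries 1 plasmid with the heavy chain and another with the light chain and a neomycin resistance gene. A1 was derived from A0 by amplification with methotrexate and carries the same plasmids, so each is a single clonal line. CHO-S, a line that makes no antibody, served as the control and is not the parent of A0. The titles of all CHO-S libraries read NDST, a label that the sources used here do not explain. Whether these cells were modified is therefore not known. All 3 lines were grown as suspension batch cultures without serum, and RNA was taken at exponential and at stationary phase. The 24 libraries came from 20 cultures: 4 of A0, 3 of A1 and 3 of CHO-S at each phase, with 2 libraries for each exponential A0 culture, which were summed.

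Nrf2, encoded by Nfe2l2, is a transcription factor that switches on genes against oxidants and electrophiles. Keap1 binds Nrf2 and delivers it for degradation until its cysteines are modified, and Bach1 is a repressor that occupies the same DNA elements until heme binds it. Among the genes under these elements, Hmox1 breaks down heme, Nqo1 reduces quinones, Gclc and Gclm form the enzyme of the rate-limiting step of glutathione synthesis, Gsr regenerates reduced glutathione, Txnrd1 regenerates reduced thioredoxin, and Srxn1 repairs overoxidized peroxiredoxins. Because Keap1 acts on Nrf2 protein, messenger levels of Nfe2l2 do not measure its activity.

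Library totals ran from 6532373 to 14652646 counts in 23 libraries, and stationary CHO-S culture 1 had 1038026. In that shallow library Gsr had 25 counts, Nqo1 44 and Bach1 52, and values without it are given where leaving it out changes a call or a count. Levels are CPM, that is, counts of a gene brought to a common library total, with TMM factors set over all 20 cultures. Changes are log2 fold changes ± SE, fitted and tested by quasi-likelihood in edgeR. Each p was adjusted by Benjamini-Hochberg over all genes of the fit, and 0.05 was the threshold. Vim, a mesenchymal marker, had group means between 799 and 1412 CPM, whereas the epithelial markers Epcam and Cdh1, the leukocyte marker Ptprc and the endothelial marker Pecam1 reached at most 7.18 CPM in any culture. Nothing in the labels says that cultures of 1 line were started separately, so the p-values measure the spread between these cultures, which may be technical. The 4 A0 cultures fell into 2 pairs. Cultures 3 and 4 differed from cultures 1 and 2 at both phases, with mean Nfe2l2 levels of 400 against 218 CPM at exponential phase and 509 against 249.7 CPM at stationary phase. Stationary Nqo1 was at 42.6 CPM in cultures 3 and 4 and at 17.5 CPM in cultures 1 and 2, and stationary Hmox1 was at 2467 and 4135 CPM in the same order. The titles of the second exponential libraries also differ between the pairs, reading RLT for cultures 1 and 2 and Duplicate for 3 and 4, and values for each pair are given where they change a call or a count, an alternative chosen after the values were seen.

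Hmox1 had the widest swing of the 10 genes between phases, and it took place in A0. Exponential A0 cultures held 934, 977, 879 and 784 CPM in culture order, and stationary ones held 4396, 3874, 2582 and 2352 CPM. Every stationary A0 culture was above every exponential one, and the fitted change was 1.87 ± 0.17 (3.66-fold). In bulk libraries such as these, more cells with Hmox1 and more Hmox1 RNA per cell cannot be told apart. In A1, exponential cultures held 1011, 1039 and 1078 CPM and stationary cultures 1060.1, 1181 and 1176 CPM. These ranges overlapped, and the change in A1 was 0.15 ± 0.05 (1.11-fold). CHO-S stood above both producing lines at exponential phase, at 1980.2, 1968 and 1854 CPM. Stationary CHO-S cultures 2 and 3 had 2886 and 2751 CPM, and the shallow culture 1 had 1502 CPM, below all exponential CHO-S cultures. Over all 3 stationary CHO-S cultures the change of 0.30 ± 0.23 did not pass the threshold (adjusted p = 0.42, edgeR), and without the shallow culture it was 0.55 and passed it (adjusted p = 6.2e-24, edgeR). The highest levels of Hmox1 were thus in stationary A0 (3301 ± 991 CPM, SD, n = 4) and stationary CHO-S (2380 ± 763 CPM, SD, n = 3), whose cultures overlapped. Below them came exponential CHO-S (1934 ± 69.5 CPM, SD, n = 3), stationary A1 (1139 ± 68.4 CPM, SD, n = 3), exponential A1 (1043 ± 33.8 CPM, SD, n = 3) and exponential A0 (894 ± 83.2 CPM, SD, n = 4).

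Txnrd1 and Srxn1, which serve the thioredoxin and peroxiredoxin system, rose with Hmox1 in stationary A0. Txnrd1 had 796, 842, 1043 and 1077 CPM in the exponential A0 cultures and 1923, 1953, 1744 and 1629 CPM in the stationary ones. No culture of one phase overlapped the other, and the level rose 1.91-fold (0.94 ± 0.11, adjusted p = 8.8e-06, edgeR). A1 had 985, 1043 and 1030.0 CPM of Txnrd1 at exponential phase and 1043, 913 and 958 CPM at stationary phase, and its change of -0.05 ± 0.05 did not pass the threshold (adjusted p = 0.5, edgeR). CHO-S went from 1111, 1118 and 1103 CPM to 1304, 1356 and 1346 CPM. Each stationary CHO-S culture was above each exponential one, but the change of 0.27 ± 0.09 passed the threshold only without the shallow culture or with DESeq2 (adjusted p = 0.1 in edgeR with all cultures).

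Srxn1 followed in A0 with little scatter at stationary phase. Its exponential A0 levels were 176, 179, 211 and 235 CPM, and its stationary levels were 431, 414, 439 and 423 CPM, a 2.11-fold rise (1.08 ± 0.10, adjusted p = 7.4e-07, edgeR). In contrast to Hmox1, the stationary level of Srxn1 did not separate the A0 pairs, with means of 423 CPM in cultures 1 and 2 and 431 CPM in cultures 3 and 4. In A1 it went from 250.4, 242 and 303 CPM to 299, 330.4 and 333 CPM (0.29 ± 0.07, adjusted p = 0.00083, edgeR), with 1 exponential culture above 1 stationary culture. In CHO-S it went from 124, 121 and 121 CPM to 144, 229.5 and 218 CPM (0.71 ± 0.18, adjusted p = 0.043, edgeR). That call was lost without any 1 of the other 5 CHO-S cultures, and the change was 0.88 without the shallow one.

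**Figure D1:**
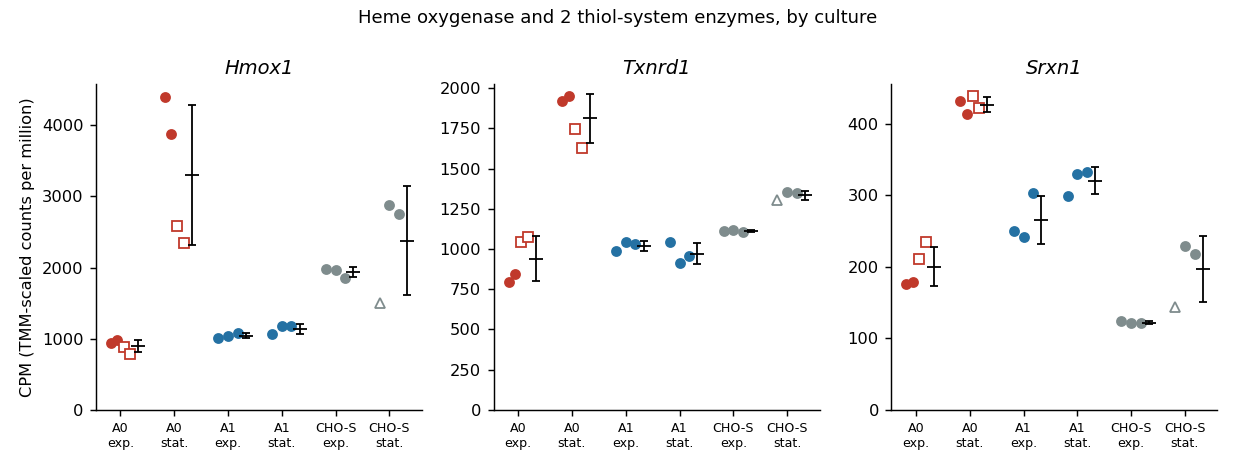
Levels of Hmox1, Txnrd1 and Srxn1 in CPM (vertical axis, linear from 0) in each culture of the 6 groups, exponential (exp.) and stationary (stat.). Red open squares are A0 cultures 3 and 4, the open triangle is the shallow CHO-S culture, and black bars are the mean ± SD. The 4 stationary A0 cultures lie above all other cultures of Txnrd1 (1629 CPM and higher) and of Srxn1 (414 CPM and higher), and for Hmox1 cultures 1 and 2 stand at 3874 CPM and above.

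Nqo1 moved against Hmox1. Often used as a readout of Nrf2, it fell in A0 from 59.0, 50.7, 72.6 and 98.2 CPM to 18.2, 16.8, 43.6 and 41.7 CPM, and no culture of one phase overlapped the other. This 2.34-fold fall (-1.23 ± 0.27, adjusted p = 0.0017, edgeR) had a near equal in A1, where levels went from 104, 102 and 104 CPM to 46.2, 45.7 and 47.2 CPM (-1.14 ± 0.07, adjusted p = 1.9e-14, edgeR). CHO-S went from 59.2, 63.8 and 59.7 CPM to 45.4, 56.9 and 56.1 CPM, a change of -0.18 ± 0.14 that did not pass the threshold (adjusted p = 0.43, edgeR), although all stationary cultures were below all exponential ones.

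None of the 3 glutathione genes among the 10 rose between phases. Gclc, the catalytic subunit of the ligase, fell in all 3 lines. Its A0 levels were 172, 200.4, 249 and 213 CPM at exponential phase and 158, 163, 138 and 162 CPM at stationary phase (-0.44 ± 0.11, adjusted p = 0.0055, edgeR). The fall was -0.30 ± 0.06 in A1 (adjusted p = 0.00025, edgeR) and -0.71 ± 0.16 in CHO-S (adjusted p = 0.027, edgeR). Gsr, the reductase, fell as well, by 0.53 ± 0.11 on the log2 scale in A0 (adjusted p = 0.0013, edgeR), 0.71 ± 0.07 in A1 (adjusted p = 3e-09, edgeR) and 0.68 ± 0.16 in CHO-S (adjusted p = 0.034, edgeR). Gclm, the modifier subunit, differed between lines. In A0 it stayed between 126 and 181 CPM at exponential phase and between 121 and 153 CPM at stationary phase, and its change of -0.13 ± 0.12 did not pass the threshold (adjusted p = 0.43, edgeR). In A1 it fell from 214, 223 and 229.5 CPM to 146, 139 and 133 CPM (-0.66 ± 0.06, adjusted p = 1.8e-10, edgeR), and in CHO-S from 122, 134 and 125 CPM to 90.8, 86.4 and 84.4 CPM (-0.54 ± 0.12, adjusted p = 0.03, edgeR). The CHO-S calls of Gclc, Gsr and Gclm were each lost without any 1 CHO-S culture other than the shallow one, and with the culture number as a block.

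**Figure D2:**
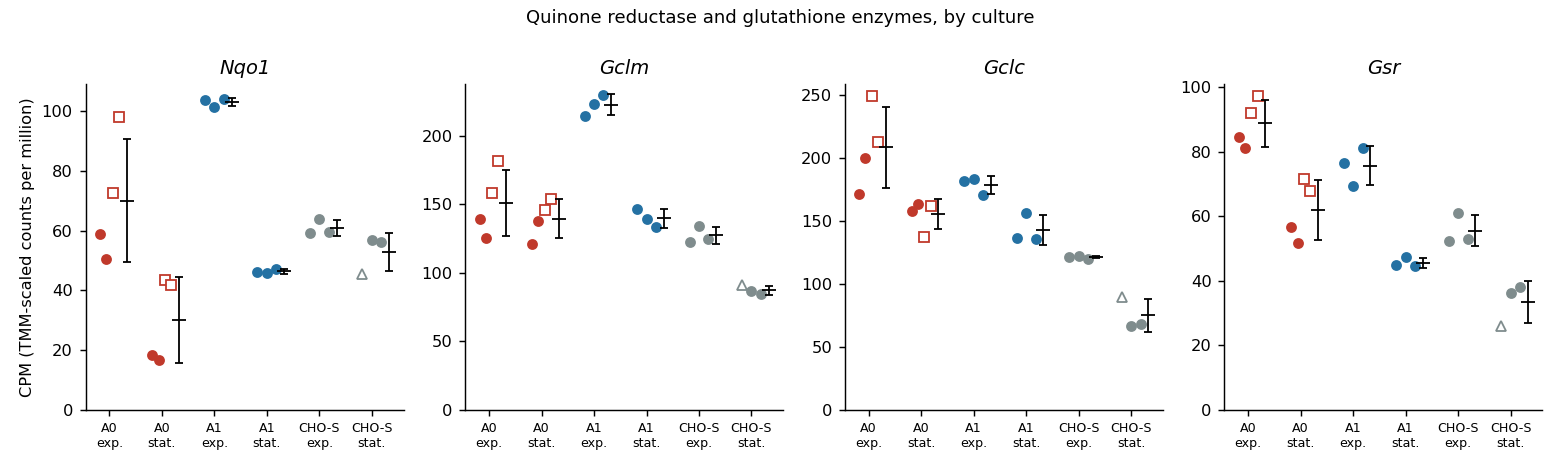
Levels of Nqo1, Gclm, Gclc and Gsr in CPM (vertical axis, linear from 0) by culture in the 6 groups, with symbols and bars as for Hmox1. For Nqo1, Gclc and Gsr all stationary cultures lie below all exponential cultures of the same line, and for Gclm this holds in A1 and CHO-S, where stationary A1 spans 133 to 146 CPM.

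Bach1 rose by a like amount in both producing lines, from 37.5, 41.2, 53.6 and 48.3 CPM to 55.3, 59.8, 66.3 and 59.3 CPM in A0 (0.40 ± 0.12, adjusted p = 0.011, edgeR) and from 38.9, 38.3 and 43.7 CPM to 57.6, 54.1 and 48.2 CPM in A1 (0.41 ± 0.08, adjusted p = 0.00011, edgeR). In CHO-S the change was 0.39 ± 0.16 and did not pass the threshold (adjusted p = 0.16, edgeR). Nfe2l2 rose in A1 from 214, 210.2 and 217 CPM to 333, 352 and 332 CPM (0.68 ± 0.05, adjusted p = 1.8e-11, edgeR). A0 cultures had 215, 220.3, 362 and 438 CPM of Nfe2l2 at exponential phase and 259.7, 239.7, 501 and 518 CPM at stationary phase. Each A0 culture was higher at stationary phase than the exponential culture of its own number, while the 2 pairs stood far apart, and the change of 0.29 ± 0.25 passed the threshold only with the culture number as a block (0.27, adjusted p = 0.011, against 0.41 without the block, edgeR). Keap1 changed by -0.16 ± 0.13 in A0 (adjusted p = 0.35, edgeR), 0.12 ± 0.07 in A1 (adjusted p = 0.22, edgeR) and -0.31 ± 0.13 in CHO-S (adjusted p = 0.15, edgeR). Without the shallow culture the CHO-S changes passed the threshold for Bach1 (0.28, adjusted p = 0.0021, edgeR), Keap1 (-0.35, adjusted p = 1.8e-07, edgeR) and Nfe2l2 (0.30, adjusted p = 6.4e-09, edgeR). In A0 the value of Keap1 depended on the pair. Cultures 1 and 2 alone gave -0.43 (adjusted p = 0.01, edgeR) and cultures 3 and 4 alone gave 0.07 (adjusted p = 0.59, edgeR).

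**Figure D3:**
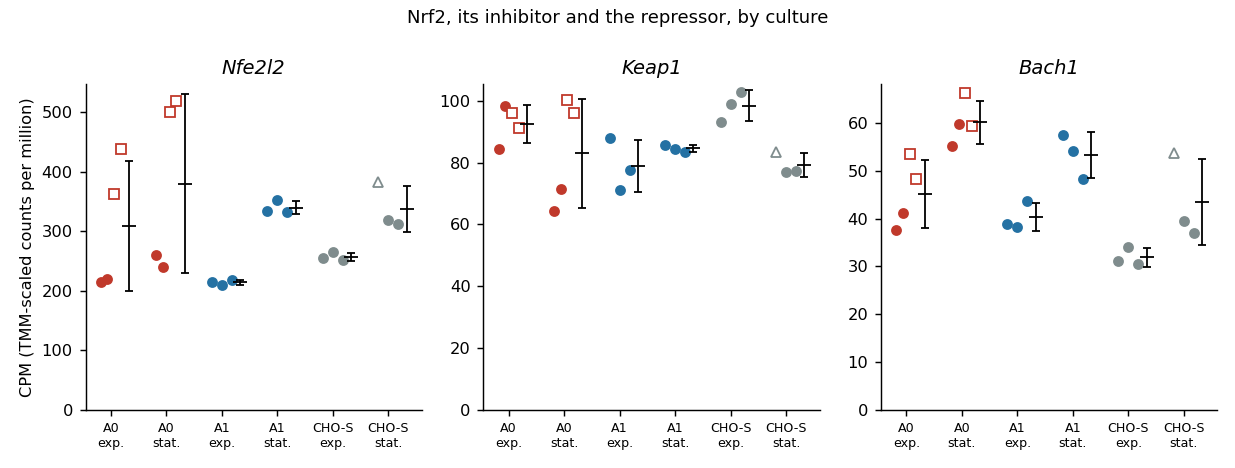
Levels of Nfe2l2 (encoding Nrf2), Keap1 and Bach1 in CPM (vertical axis, linear from 0) by culture in the 6 groups, with symbols and bars as for Hmox1. A0 cultures 3 and 4 (open squares) carry 362 CPM or more of Nfe2l2 at both phases, and cultures 1 and 2 carry 259.7 CPM or less.

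Hmox1 left out, 6 of the other 9 genes passed the threshold between phases in A0, 3 higher and 3 lower. Of all 20267 genes tested in A0, 37.7% passed, and of those with at least 5 CPM on average, as all 10 genes have, 54.7% passed. In A1, 7 of the 9 passed, 3 higher and 4 lower, beside 33.4% of all genes and 50.6% of those with at least 5 CPM. With all 6 groups in 1 fit, which shares a single estimate of spread, the count in A1 was 3 (Nqo1, Gclm and Gsr). In CHO-S, 4 of 10 passed, 1 higher and 3 lower, beside 13.3% of all genes and 17.6% of those with at least 5 CPM. The CHO-S count was 9 without the shallow stationary culture, when all but Nqo1 passed, and 0 without any 1 of the other CHO-S cultures (edgeR, with between 4 and 6 genes at an unadjusted p under 0.05). Of all genes tested, 8269 passed without the shallow culture and between 0 and 574 without any 1 of the others. DESeq2 called 6 with all cultures. Taken pair by pair, 6 of the 9 genes passed in A0 cultures 1 and 2, where Gclc was lost (-0.22, adjusted p = 0.085, edgeR) and Keap1 gained, and 5 in cultures 3 and 4, where Bach1 was lost (0.30, adjusted p = 0.08, edgeR). Txnrd1 and Srxn1 passed in both pairs, with 1.23 and 1.24 in cultures 1 and 2 and 0.67 and 0.95 in cultures 3 and 4.

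**Figure D4:**
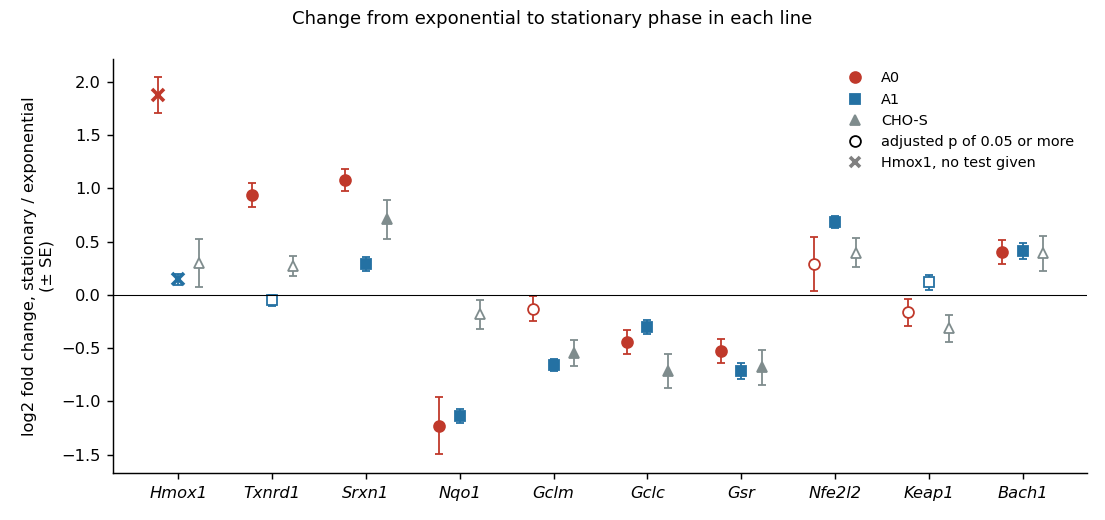
Log2 fold change from exponential to stationary phase (vertical axis, ± SE from the edgeR fit) for the 10 genes in A0, A1 and CHO-S. Open symbols have an adjusted p of 0.05 or more, and crosses mark Hmox1 in A0 and A1, for which no test is given. Txnrd1 stands at 0.94 in A0 and -0.05 in A1, while Nqo1, Gclc and Gsr lie below 0 in all 3 lines.

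Whether a gene changed differently between phases in A1 and in A0 was tested as the interaction of line and phase. Apart from Hmox1, whose difference was -1.77 ± 0.21 (A1 minus A0), 3 genes passed. Txnrd1 had a difference of -1.03 ± 0.14 (adjusted p = 0.00011, edgeR), Srxn1 of -0.83 ± 0.14 (adjusted p = 0.00065, edgeR) and Gclm of -0.57 ± 0.15 (adjusted p = 0.016, edgeR). The count was thus 3 of the other 9, all with the lower phase change in A1, beside 8.94% of the 20953 genes tested (15.8% of those with at least 5 CPM). Each of these 3 genes also passed with either A0 pair alone. Txnrd1 and Srxn1 passed in each of 21 further fits, and Gclm lost its call in 4 of them, each without 1 A1 culture (adjusted p between 0.052 and 0.059, edgeR). Nqo1, in contrast, had a difference of 0.05 ± 0.33 (adjusted p = 1, edgeR), and Gclc, Gsr, Bach1, Keap1 and Nfe2l2 had differences between -0.22 and 0.36 that did not pass. Of these, Nqo1, Nfe2l2 and Keap1 passed with cultures 1 and 2 alone (0.48, 0.46 and 0.51), which brought the count to 6 of the 9, and none of them passed with cultures 3 and 4 alone.

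**Figure D5:**
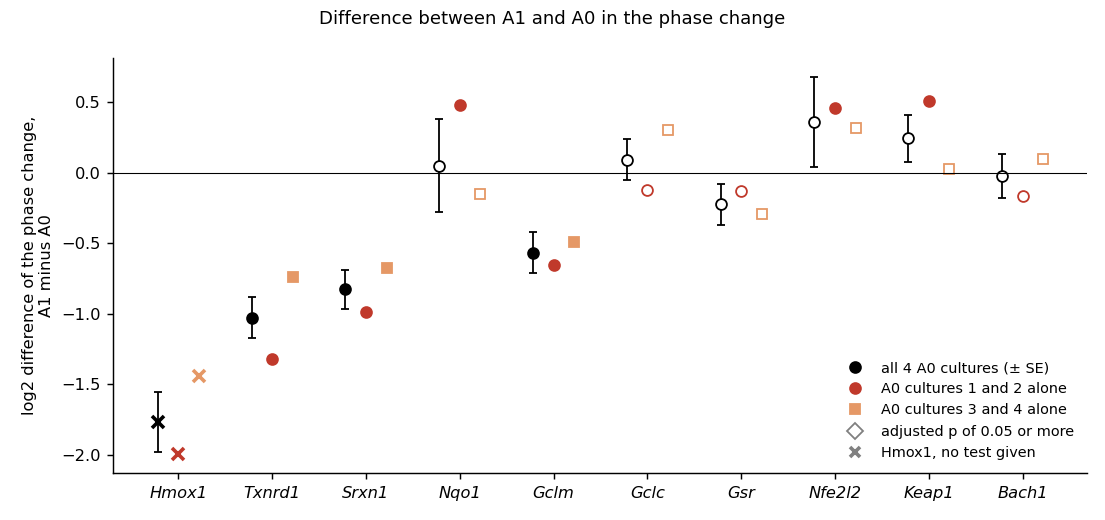
Difference in the phase change between A1 and A0 on the log2 scale (vertical axis) for the 10 genes, with all 4 A0 cultures (black, ± SE) and with each pair of A0 cultures. Open symbols have an adjusted p of 0.05 or more and crosses mark Hmox1, for which no test is given. Txnrd1, Srxn1 and Gclm lie below 0 with a filled symbol in all 3 fits, at -1.03, -0.83 and -0.57 with all cultures.

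The same interaction was tested against CHO-S. For A0 minus CHO-S, Hmox1 had a difference of 1.55 ± 0.30, and of the other 9 genes only Txnrd1 passed (0.66 ± 0.18, adjusted p = 0.021, edgeR), beside 10.3% of all genes tested. Txnrd1 lost that call without any 1 of the exponential CHO-S cultures (adjusted p between 0.052 and 0.057, edgeR) and with A0 cultures 3 and 4 alone (0.39, adjusted p = 0.12, edgeR). Without the shallow culture Gclm passed as well (0.49, adjusted p = 0.042, edgeR), which made the count 2 of the 9, beside 17.2% of all genes. Srxn1 had a difference of 0.35 ± 0.21 (adjusted p = 0.35, edgeR). Nqo1 had one of -1.07 ± 0.39 (adjusted p = 0.091, edgeR), which passed with the replicate block (-1.13, adjusted p = 0.0029, edgeR) and with A0 cultures 1 and 2 alone (-1.47, adjusted p = 0.00073, edgeR). For A1 minus CHO-S, only Nqo1 passed (-0.98 ± 0.13, adjusted p = 0.00067, edgeR), beside 7.60% of all genes, and without the shallow culture 6 of the 9 genes other than Hmox1 passed. The 3 interactions share groups with each other and with the phase comparisons, so they are not independent.

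Between A1 and A0 at exponential phase, 3 of the 9 genes other than Hmox1 passed the threshold, all higher in A1. Past it were 25.9% of all genes tested and 37.8% of those with at least 5 CPM. The 3 genes were Gclm (0.56 ± 0.11, adjusted p = 0.0017, edgeR), Nqo1 (0.56 ± 0.16, adjusted p = 0.019, edgeR) and Srxn1 (0.40 ± 0.11, adjusted p = 0.016, edgeR). Hmox1 was higher in each A1 culture than in each A0 culture, by 0.22 ± 0.09. The count was 5 with A0 cultures 3 and 4 alone (1 higher, 4 lower) or with only the first library of each exponential A0 culture (3 higher, 2 lower), and 1 without A1 exponential culture 3. A0 cultures 1 and 2 alone gave 4, all higher in A1, with Txnrd1 gained (0.31, adjusted p = 0.0025, edgeR). Nqo1 lost its call without A0 exponential culture 1 or 2 or any A1 culture (adjusted p between 0.05 and 0.09, edgeR). It also lost it with all 6 groups in 1 fit (adjusted p = 0.084, edgeR) and stood at the threshold without A0 culture 3 (adjusted p = 0.05, edgeR). Srxn1 lost its call without A0 culture 2 (adjusted p = 0.056, edgeR) or A1 culture 3 (adjusted p = 0.14, edgeR). Against A0 cultures 3 and 4 alone neither Nqo1 (0.27) nor Srxn1 (0.25) passed (adjusted p = 0.13 for each, edgeR). Nfe2l2 differed by -0.53 ± 0.19 (adjusted p = 0.056, edgeR), and by -0.91 against cultures 3 and 4 alone (adjusted p = 0.0002, edgeR).

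At stationary phase Hmox1 was 2.92-fold lower in A1 than in A0 (-1.55 ± 0.17), Txnrd1 was 1.88-fold lower (-0.91 ± 0.08, adjusted p = 1.4e-06, edgeR), Gsr 1.37-fold lower (-0.45 ± 0.11, adjusted p = 0.0044, edgeR) and Srxn1 1.34-fold lower (-0.42 ± 0.07, adjusted p = 0.00021, edgeR). Thus 3 of the 9 genes other than Hmox1 passed, none of them higher in A1. Past the threshold were 33.7% of all genes tested and 47.3% of those with at least 5 CPM. Nqo1 was higher in every A1 culture than in every A0 culture, by 0.60 ± 0.26 (adjusted p = 0.093, edgeR), and passed with the replicate block (0.91, adjusted p = 1.4e-12, edgeR) and against cultures 1 and 2 alone (1.39, adjusted p = 6.7e-13, edgeR) but not against cultures 3 and 4 alone (0.12, adjusted p = 0.26, edgeR). Between lines the block rests on a shared culture number only. Srxn1 thus stood above A0 in exponential A1, though not past the threshold against A0 cultures 3 and 4 alone, and below it in stationary A1. Gclm, higher in exponential A1, was level at stationary phase, at 139 ± 6.74 CPM in A1 (SD, n = 3) and 139 ± 14.1 CPM in A0 (SD, n = 4), a difference of -0.01 ± 0.09 (adjusted p = 0.93, edgeR). The A0 pairs gave opposite results for Nfe2l2, which A1 exceeded by 0.43 against cultures 1 and 2 (adjusted p = 4e-06, edgeR) and undercut by 0.59 against cultures 3 and 4 (-0.59, adjusted p = 1.3e-06, edgeR). Keap1 split the same way, at 0.30 and -0.22 (adjusted p = 0.0032 and 0.014, edgeR). Against cultures 1 and 2 alone 7 of the 9 genes passed, and against cultures 3 and 4 alone 6.

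Against CHO-S, the producing lines held less Hmox1 and more Srxn1, Gclc, Gsr and Bach1 at exponential phase. In A0, 4 of the 9 genes other than Hmox1 passed, beside 49.5% of all genes and 65.7% of those with at least 5 CPM. Hmox1 was lower (-1.10 ± 0.09), and Gclc (0.79), Srxn1 (0.73), Gsr (0.69) and Bach1 (0.51) were higher. All 9 of these genes passed in A1, 6 higher and 3 lower, beside 57.2% of all genes and 76.1% of those with at least 5 CPM. Srxn1 (1.12 ± 0.06), Gclm (0.80 ± 0.05) and Nqo1 (0.76 ± 0.05) were the farthest above CHO-S in A1, and Hmox1 (-0.90 ± 0.04) the farthest below. The smaller differences of Txnrd1, Nfe2l2, Keap1 and Bach1 did not pass with all 6 groups in 1 fit, which left 5 genes. The A0 pairs lay on either side of CHO-S for Nfe2l2, at -0.23 for cultures 1 and 2 and 0.64 for cultures 3 and 4. With cultures 3 and 4 alone 7 of the 9 genes passed, all higher. With cultures 1 and 2 alone 6 passed, 4 higher and 2 lower. The lower ones were Txnrd1 (-0.44, adjusted p = 3.9e-05, edgeR) and Nfe2l2 (adjusted p = 0.0018, edgeR).

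At stationary phase, 6 of the 9 genes other than Hmox1 passed between A0 and CHO-S, all higher in A0. Past the threshold were 40.0% of all genes and 48.9% of those with at least 5 CPM. The 6 genes were Srxn1 (1.08 ± 0.17), Gclc (1.06 ± 0.16), Gsr (0.83 ± 0.18), Gclm (0.66 ± 0.14), Bach1 (0.50 ± 0.17) and Txnrd1 (0.42 ± 0.13). Bach1 lost its call without any 1 of the A0 cultures, and without CHO-S culture 2 or 3, and Txnrd1 without A0 culture 1 or 2 (adjusted p = 0.065 and 0.079, edgeR) or CHO-S culture 3 (adjusted p = 0.075, edgeR). A0 cultures 1 and 2 alone gave 4 calls, 3 higher and 1 lower. Gclc and Srxn1 were kept, Nqo1 passed as lower, and Txnrd1 stood at the threshold (0.54, adjusted p = 0.05, edgeR). Gclm, Gsr and Bach1 were lost (adjusted p = 0.051, 0.059 and 0.18, edgeR). A0 cultures 3 and 4 alone gave 4 calls, Gclm, Gclc, Srxn1 and Gsr, all higher. Txnrd1 and Bach1 were lost there (adjusted p = 0.19 and 0.11, edgeR). Nqo1 was lower in every A0 culture, by 0.86 ± 0.33 on the log2 scale (adjusted p = 0.061, edgeR), and passed without the shallow culture (-0.88, adjusted p = 0.035, edgeR) and with A0 cultures 1 and 2 alone (-1.61, adjusted p = 0.0023, edgeR). Hmox1 differed by 0.46 ± 0.28, and by 0.24 without the shallow culture. A1 differed from CHO-S in 4 of the 9 genes, beside 34.8% of all genes and 41.5% of those with at least 5 CPM. Txnrd1 was lower (-0.48 ± 0.12, adjusted p = 0.016, edgeR), and Gclc (0.93 ± 0.17), Srxn1 (0.67 ± 0.19) and Gclm (0.66 ± 0.14) were higher. Hmox1 was lower as well (-1.08 ± 0.23). The count of 4 became 7 without the shallow culture and between 2 and 3 without any 1 of the others. Gclc and Gclm kept their calls without any 1 culture.

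The wider pathway was read from 7 lists with 70 genes, of which 61 were in the table by symbol. Between phases in A0, 19 of the 60 list genes tested rose, 17 fell and 24 did not pass, with a median change of -0.01. Past the threshold were 37.7% of all genes and 54.7% of those with at least 5 CPM. In A1, 11 of 59 rose, 17 fell and 31 did not pass, and in CHO-S 3 rose, 3 fell and 53 did not pass. The shares in A1 and CHO-S were 33.4% and 13.3% of all genes, and 50.6% and 17.6% of those with at least 5 CPM. Among glutathione genes outside the 10, Slc7a11, which imports cystine, went from 45.3 ± 16.2 to 156 ± 56.5 CPM in A0 (SD, n = 4, 1.78 ± 0.25, adjusted p = 3.3e-05, edgeR). Gss, which makes glutathione from the product of Gclc and Gclm, went from 104 ± 2.02 to 326 ± 37.0 CPM in A0 (SD, n = 4, 1.64 ± 0.10, adjusted p = 6.2e-09, edgeR). Over the glutathione list in A0, 4 genes were higher, 6 lower and 3 did not pass.

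In A0 the list of partners and regulators had 5 genes higher, 2 lower and 3 that did not pass. Nfe2l1, a relative of Nrf2, rose by 1.65 ± 0.12 (adjusted p = 3.8e-08, edgeR) and Sqstm1, an autophagy receptor that binds Keap1, by 1.35 ± 0.13 (adjusted p = 8e-07, edgeR). These also rose in A1, Sqstm1 by 0.92 ± 0.07 and Nfe2l1 by 0.78 ± 0.07. Ferritin heavy chain Fth1, which stores iron such as that freed from heme, rose in A1 (1.05 ± 0.05, adjusted p = 1.5e-15, edgeR) and in CHO-S (1.26 ± 0.09, adjusted p = 0.0019, edgeR) and also in A0 (1.10 ± 0.13, adjusted p = 4.3e-06, edgeR). In A1, Hmox1 ranged between 1011 and 1181 CPM over both phases, and whether it bears on Fth1 was not tested. Gpx1, a peroxidase, fell in A1 (-1.27 ± 0.06, adjusted p = 7.4e-16, edgeR). Its mean also went from 187 to 76.2 CPM in A0 and from 132 to 81.3 CPM in CHO-S. In CHO-S, Maff, a small Maf partner, rose (1.42 ± 0.17, adjusted p = 0.0042, edgeR), the transporter Abcb6 fell (-1.02 ± 0.22, adjusted p = 0.025, edgeR) and the quinone reductase Nqo2 rose (0.94 ± 0.18, adjusted p = 0.017, edgeR). Stationary CHO-S cultures spanned 3.10 to 14.8 CPM of Abcb6, and mean Nqo2 in exponential CHO-S was 4.62 CPM. Alternative fits were not read for list genes, so whether these calls and that of Fth1 hold without 1 CHO-S culture is not known. Of all genes in CHO-S, between 0 and 574 passed without any 1 culture other than the shallow one. Mean Maff also went from 18.4 to 40.3 CPM in A0 and from 16.5 to 21.8 CPM in A1. Mean Abcb6 went from 61.6 to 53.0 CPM in A0 and from 84.9 to 59.7 CPM in A1. Nqo2 went from 8.01 to 7.09 CPM in A0 and from 8.30 to 9.52 CPM in A1.

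In the interaction of line and phase, 11 of the 60 list genes tested passed, 10 with the lower phase change in A1 and 1 with the higher, beside 8.94% of all genes tested (15.8% of those with at least 5 CPM), and the median over all 60 was -0.24. Gsto1, a glutathione transferase, rose in A0 from 82.3 to 160.0 CPM and went in A1 from 102 to 63.1 CPM (difference -1.66 ± 0.18, adjusted p = 5.2e-06, edgeR). Slc7a11 had a difference of -1.52 ± 0.31 (adjusted p = 0.0029, edgeR), Gss of -1.30 ± 0.12 (adjusted p = 6.5e-07, edgeR) and Abcc1, an exporter of glutathione conjugates, of -0.96 ± 0.14 (adjusted p = 0.00015, edgeR). Exponential A1 started above A0 for Slc7a11 (92.3 against 45.3 CPM), Gss (206 against 104 CPM) and Abcc1 (196 against 71.4 CPM).

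Over the 20 cultures, Txnrd1 was the one of the 9 genes whose level tracked Hmox1 most closely, with a Pearson r of 0.87 on log2(CPM + 1), rank 24 among 10588 genes with at least 5 CPM on average. Srxn1 had an r of 0.27, Bach1 of 0.14 and Nfe2l2 of 0.12, while Keap1 (-0.33), Gsr (-0.45), Gclc (-0.53), Gclm (-0.54) and Nqo1 (-0.72) ran the other way. The genes most like Hmox1 were Tmem63b (0.98), Tmem231 (0.95), Mpzl1 (0.94), Col8a1 (0.94) and Tecpr1 (0.94). These correlations are descriptions, since the 20 cultures fall into 6 groups and the levels of all genes share the same scaling. Col8a1, a collagen, went from 24.9 to 131 CPM in A0, to 29.5 CPM in stationary A1 and from 56.5 to 77.2 CPM in CHO-S, and thus had a wider swing in A0 than Hmox1.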

How the data were processed

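RNA of 24 CHO libraries was sequenced from TruSeq Stranded mRNA libraries. The authors aligned the reads with STAR 2.5.4b to the Chinese hamster genome (C_griseus_v1.0), and the deposited values are whole-number counts per gene from HTSeq-count 0.7.2, with no normalization. The strand setting is not given in the sources used here, so reads of overlapping or antisense genes cannot be told apart. Between 11.9% and 32.8% of a library's reads lay outside genes. The HTSeq summary lines were left out.

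Libraries of 1 A0 culture were summed. They differed by more than sampling noise (chi-square per degree of freedom from 2.74 to 26.8). A gene entered a fit if 2 or more of its cultures had 1 count or more and its variance was not 0. Fits used edgeR 4.0.16 in R 4.3.3 (TMM, two-sided quasi-likelihood test, Benjamini-Hochberg, threshold 0.05), each comparison on its own groups and each interaction on 4 groups. Gene symbols are those of the table. The script was tested on simulated counts. In A0, cultures with the same number deviated together between phases (correlations 0.435, 0.32, 0.274 and 0.189), so the numbers were taken to pair A0 cultures, and only these. Cultures 1 and 2 were most like the culture of their own number, and cultures 3 and 4 were not. Whether these correlations reflect only the split of A0 into 2 pairs was not tested. The main fits used no block. DESeq2 1.42.0, other normalization and filters, the block, all 6 groups in 1 fit, first A0 libraries alone and leaving out each culture were tried as alternatives. The 10 genes, the 7 pathway lists and the comparisons were chosen with earlier results of these data known. Beyond the 10 genes, the text names, in each phase comparison and in A1 minus A0, up to 4 list genes with the largest change among those past the threshold with at least 5 CPM, and the 5 genes most correlated with Hmox1. Counts cover counting error and the spread between cultures only. The check of 1 further marker gene is not reported here.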

Additional observations from a re-analysis of the deposited data

Results flagged for a closer look

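For 4 genes the change between phases differed between lines by a test of the difference itself, in 5 cases. Between A1 and A0, the difference on the log2 scale was -1.03 for Txnrd1, which rose in A0 and did not pass in A1, -0.83 for Srxn1, which rose in both and more in A0, and -0.57 for Gclm, which fell in A1. Between A0 and CHO-S it was 0.66 for Txnrd1, and between A1 and CHO-S it was -0.98 for Nqo1, which fell in A1. Among the 20 groups of 4 A0 cultures examined (10 genes at 2 phases), none held a culture far from the other 3 by Dixon's test at the 95% level, where about 1 would be expected by chance. That test does not see the split of A0 into cultures 1 and 2 and cultures 3 and 4.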

How the results depend on the processing

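Of the 108 values of the 9 genes other than Hmox1 over 12 comparisons, 51 passed the threshold, and all 51 kept their direction under each of the 12 to 21 alternatives run per comparison, the single A0 pairs aside, with 29 of them past the threshold in all. Counts past the threshold over these 9 genes moved as follows. Only between phases in CHO-S is Hmox1 included. With all 6 groups in 1 fit the counts were 3 between phases in A1 and 5 for A1 against CHO-S at exponential phase. Past the threshold there were 11.6% and 35.3% of all genes. For A1 minus CHO-S that fit gave 0, beside 5.49% of all genes (edgeR, 4 of the 10 genes at an unadjusted p under 0.05). DESeq2 gave 4 for A1 minus CHO-S, beside 10.3% of all genes. With the replicate block the CHO-S phase count was 0, beside 2.02% of all genes (edgeR, 4 at an unadjusted p under 0.05). With the block Nfe2l2 passed for A1 minus A0 (0.38, adjusted p = 0.0098, edgeR). First A0 exponential libraries alone gave 5 for A1 against A0 at exponential phase, as did A0 cultures 3 and 4 alone, beside 29.9% and 25.8% of all genes. Cultures 1 and 2 alone gave 7 for A1 against A0 at stationary phase (41.8% of all genes) and 6 for A1 minus A0 (22.7%). Cultures 3 and 4 alone gave 6 for A1 against A0 at stationary phase (37.3%) and 7 for A0 against CHO-S at exponential phase (51.6%). Leaving out 1 culture gave counts from 0 to 9 between phases in CHO-S (0% to 47.7% of all genes) and 1 to 4 for A1 against A0 at exponential phase (16% to 30.8%). For A1 against CHO-S at stationary phase it gave 2 to 7 (22.8% to 57.4%). The counts were 0 to 2 for A0 minus CHO-S (6.61% to 17.2%) and 1 to 6 for A1 minus CHO-S (4.01% to 25.4%). The cause was not tested.

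Values not past the threshold in comparisons of phases and of A1 with A0 changed sign in these cases. With A0 cultures 3 and 4 alone, Keap1 was 0.070 between phases in A0 and -0.22 for A1 against A0 at stationary phase, Txnrd1 was -0.062 for A1 against A0 at exponential phase, and Nqo1 was -0.15 and Bach1 0.095 for A1 minus A0. With cultures 1 and 2 alone, Bach1 was 0.028 for A1 against A0 at exponential phase, Gclm 0.091 and Nfe2l2 0.43 at stationary phase, and Gclc -0.12 for A1 minus A0. Nfe2l2 was -0.23 for A0 against CHO-S at exponential phase with cultures 1 and 2 alone. For A1 against A0 at stationary phase Gclm was 0.00062 with all 6 groups in 1 fit and 0.039 with the replicate block, and Nfe2l2 was 0.094 with the block. For A1 minus A0, Nqo1 was -0.0079 and Bach1 0.056 with first A0 libraries alone, and Bach1 was 0.0059 with no filter on low counts. Without 1 culture, stationary A1 against A0 ranged from -0.078 to 0.036 for Gclm, -0.34 to 0.011 for Nfe2l2 and -0.092 to 0.12 for Keap1, and A1 minus A0 from -0.16 to 0.28 for Nqo1 and -0.11 to 0.053 for Bach1. In comparisons with CHO-S, 8 further values not past the threshold changed sign in 1 or more alternatives other than the single A0 pairs.

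The block changed no other call of the A0 phase comparison than that of Nfe2l2. In A1, in CHO-S and between lines, the correlations of same-numbered cultures ran from -0.195 to 0.186. The highest were 0.186 for A1 culture 3 and 0.124 and 0.12 for CHO-S cultures 1 and 2. The block there was taken to rest on a shared number only. The CHO-S results moved with the shallow stationary culture, and whether its depth was the reason was not tested. With 3 or 4 cultures a group a missed threshold does not show that a gene did not change.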
